A study of Homo sapiens with 32 samples.

Results

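The genes described here are 10 plasma membrane amino acid transporters, SLC7A11, SLC7A5, SLC3A2, SLC7A1, SLC38A1, SLC38A2, SLC1A4, SLC1A5, SLC6A9 and SLC7A3, out of 57773 genes in the count tables. They were chosen by name, as a list of transporters drawn up with results of the 24 h comparisons of EGF and AII+EGF with control known, so the values of those comparisons, and counts of genes past a limit in them, are given as a description and not as tests. RNA-seq counts were available from HEK293 cells, an established human embryonic kidney line, which had all been transiently transfected with the angiotensin II receptor AT1R and kept without serum. Cells were left as control or received 1 nmol/l angiotensin II (AII), 10 µg/l epidermal growth factor (EGF) or both agents (AII+EGF), and were harvested 6 h or 24 h later. Counts from 4 libraries represented every condition and time except AII+EGF at 24 h, for which 3 were available. The comparisons ask whether the EGF receptor and AT1R, alone or together, alter the transcripts of these transporters. The labels do not say that the libraries of a group came from separate cultures, so p-values measure only the spread between these libraries.

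Amino acid transporters of the solute carrier (SLC) families carry amino acids across the plasma membrane. SLC7A11 is the light chain of the cystine/glutamate exchanger, which imports cystine for glutathione synthesis, and SLC7A5 is the light chain of an exchanger of large neutral amino acids such as leucine. Both light chains pair with the heavy chain SLC3A2, which takes them to the cell surface. The transcription factor ATF4 is known to raise many of these genes when amino acids are short, often through composite sites that it shares with C/EBP proteins, and NRF2 is known to raise SLC7A11 under oxidative stress.

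Promoter stretches are shown because many of these genes are known targets of ATF4. Windows of 300 bases around RefSeq start sites (GRCh38.p14) were found for 8 of the 10 genes, in 14 windows, and SLC7A11 and SLC7A3 had no entry. On either strand, the letters TGATGNAA of the composite ATF4 and C/EBP element were present in 5 of the 14 windows, from 5 genes, beside 3.62% of all 35116 windows. Of these genes SLC3A2, SLC38A1, SLC1A4 and SLC1A5 also had windows without these letters, and which start sites the cells use was not tested. The letters TGACNNNGC of the NRF2 response element were present in 4 of the 14, from 4 genes (SLC7A5, SLC3A2, SLC7A1 and SLC1A5), beside 13.3% of all windows. The matches to the first element are printed in the direction of the gene, with the element in capitals, and lie at chr11:62881736-62881743 (SLC3A2, plus strand), chr13:29595674-29595681 (SLC7A1, minus strand), chr12:46266513-46266520 (SLC38A1, minus strand), chr2:64989392-64989399 (SLC1A4, plus strand) and chr19:46784904-46784911 (SLC1A5, minus strand).
SLC3A2: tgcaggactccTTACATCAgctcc
SLC7A1: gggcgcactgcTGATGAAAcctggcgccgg
SLC38A1: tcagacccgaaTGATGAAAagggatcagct
SLC1A4: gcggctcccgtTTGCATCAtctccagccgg
SLC1A5: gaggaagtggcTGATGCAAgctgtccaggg
The match of SLC7A5 to the NRF2 element spans its start site (chr16:87869501-87869509, minus strand) and is printed in the same way.
SLC7A5: gcggggttccTGACGCAGCtgcgggcggc
A match describes letters in a window and does not show that a factor binds there.

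The 6 h libraries held between 3881841 and 8540815 counts in genes, 81.4% to 84.7% of them in protein-coding genes. The 24 h libraries held between 6646227 and 33070903 counts, of which 20.8% to 63.4% were in protein-coding genes. U1 small nuclear RNA genes held 8.90% to 57.2% at 24 h, against 0.0314% to 0.300% at 6 h. By condition at 24 h, U1 held 8.90% to 22.9% in control and 12.2% to 33.5% with EGF. It held 11.4% to 57.2% with AII and 10.3% to 55.6% with AII+EGF. The part of this difference in the 24 h results was not tested. The spread between libraries of a group (biological coefficient of variation) was 10.6% at 6 h and 29.1% at 24 h. Time went together with the count table, with the shares of U1 and protein-coding counts and with any difference in library preparation. Differences in level between 6 h and 24 h cannot be told apart from these. The HEK293 markers VIM, NEFM, NEFL, KRT8 and KRT18 were counted in all libraries, whereas PAX2 stood at 0 to 10 counts, and the markers of blood, endothelial and liver cells summed to at most 1.84 FPM in any library (FPM, fragments per 1000000 counts after TMM scaling, edgeR's correction for composition). The summed HEK293 markers, led by NEFM, ranged from 1172 to 1299 FPM in control and from 1421 to 1592 FPM in AII+EGF libraries at 6 h, and from 1844 to 2070 FPM in control, 3277 to 4345 FPM in EGF and 2910 to 3196 FPM in AII+EGF libraries at 24 h. Their part in the results was not tested. AGTR1, the transfected receptor, was present at 950 FPM or more in all 6 h libraries and at 369 FPM or more in all 24 h libraries. At 6 h it ranged from 950 to 1190.5 FPM in control and from 1023 to 1236 FPM with EGF. With AII it ranged from 1318 to 1515 FPM, and with AII+EGF from 1414 to 1568 FPM. At 6 h all libraries with AII thus lay above all those without it, whereas at 24 h the groups overlapped. The part of this difference in the results was not tested.

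In control cells at 6 h, levels per kilobase of exon ran from SLC1A5, the sodium-dependent glutamine transporter, at 113 ± 14.2 FPM per kilobase (SD, n = 4) down to SLC7A3, a cationic amino acid transporter, at 0.018 FPM per kilobase. Between them came SLC7A1 at 45.9 ± 4.70, SLC38A2 at 42.6 ± 7.29, SLC38A1 at 23.8 ± 3.06, SLC7A5 at 20.6 ± 3.53, SLC3A2 at 14.7 ± 1.60, SLC1A4 at 4.34 ± 0.371, SLC7A11 at 1.53 ± 0.205 and SLC6A9 at 0.948 ± 0.194 FPM per kilobase (SD, n = 4). The neighbours SLC7A1 and SLC38A2, and SLC38A1 and SLC7A5, did not differ beyond their spread. The heavy chain SLC3A2 had more transcript per kilobase than its light chain SLC7A11 in all control libraries, and a lower mean than its light chain SLC7A5. At 24 h the order in control cells was the same, except that SLC3A2 (5.39 ± 0.973 FPM per kilobase) stood above SLC7A5 (4.45 ± 0.669), within their spread. Exon lengths were those of a later annotation than the one counted.

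**Figure D1:**
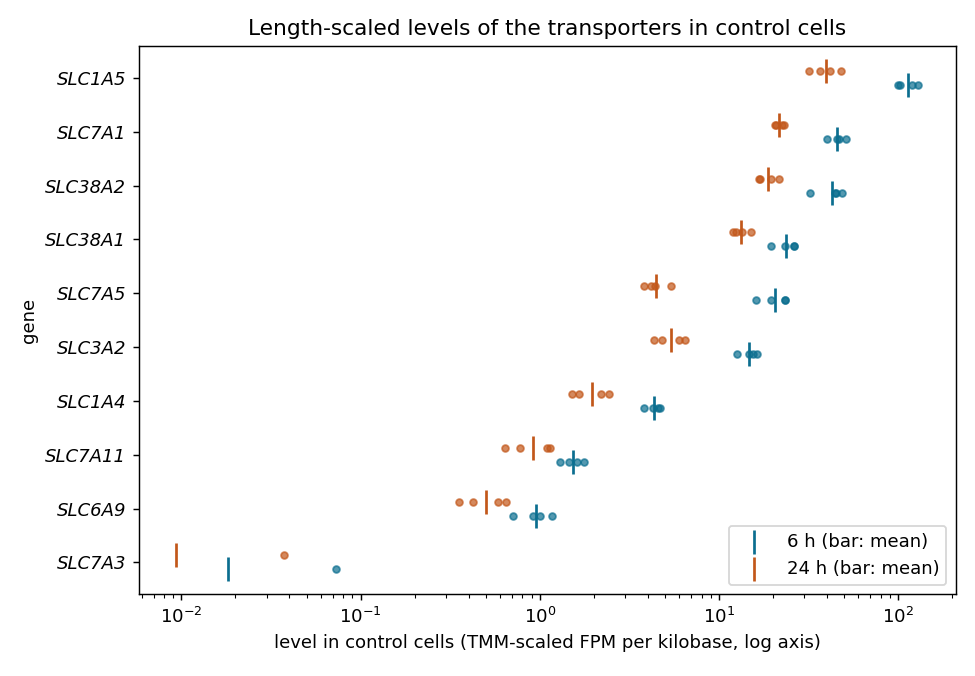
Levels of the 10 transporters in control cells, in TMM-scaled FPM per kilobase of exon on a log axis, with 1 point for each library (4 at each time; libraries at 0 are not drawn) and a bar at the mean of the 4. SLC1A5 was highest at both times and SLC7A3, with at most 1 count in a control library, was lowest.

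Of the 10 genes, 9 passed the filter on low counts at each time. SLC7A3 did not. It had 0 to 2 counts in the 6 h and 0 to 3 counts in the 24 h libraries, at or under the floor of 3 counts, so no fold change is given. A gene was called changed when its edgeR FDR over all tested genes was under 0.05, its fold change above 1.5 and its mean level above 5 FPM in the higher group.

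After 6 h of EGF, 1 of the 9 tested transporters was called (SLC7A5, higher), beside 1.73% of the 18618 genes tested. By FDR alone, 4 of 9 were higher (SLC7A5, SLC7A1, SLC38A1 and SLC7A11), beside 5.97% of genes in either direction. With AII+EGF, 1 of 9 was called (again SLC7A5), beside 1.95%, and by FDR alone 3 of 9 were higher (SLC7A5, SLC7A1 and SLC38A1), beside 6.1%. All EGF libraries lay above all control libraries for 4 of the 9 genes, beside 6.61% of all genes, and all AII+EGF libraries did so for the same 4, beside 6.77%. These 4 were SLC7A11, SLC7A5, SLC7A1 and SLC38A1. The median log2 fold change of the 9 transporters was 0.24 with EGF and 0.47 with AII+EGF, beside -0.012 and -0.014 over all genes. No transporter fell by this test.

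SLC7A11 (chr4:139085251-139163503, minus strand, GRCh37; 12 exons) stood at 14.1, 12.4, 17.1 and 15.5 FPM in the 6 h control libraries and at 22.2, 19.4, 20.8 and 22.7 FPM with EGF. In the AII+EGF libraries of 6 h it stood at 17.2, 18.3, 27.2 and 18.6 FPM, and with AII alone at 15.2, 15.8, 15.2 and 23.6 FPM. All EGF and AII+EGF libraries lay above all control libraries, whereas AII overlapped with control. The log2 fold change was 0.53 (SE 0.16, edgeR adjusted p = 0.0488) with EGF and 0.47 (SE 0.16, edgeR adjusted p = 0.0892) with AII+EGF. Each was higher in 4 of 4 libraries, with an exact two-sided permutation p of 0.0286, the smallest that 4 against 4 libraries allow. Neither reached the 1.5-fold limit, at 1.44-fold and 1.38-fold. The EGF value is near the threshold, and its adjusted p ranged from 0.0078 to 0.127 over 21 alternative fits.

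At 24 h SLC7A11 stood at 10.6, 10.9, 6.16 and 7.47 FPM in control and at 6.25, 8.89, 8.50 and 8.90 FPM with AII. It stood at 16.3, 18.6, 19.5 and 15.8 FPM with EGF and at 21.4, 31.0 and 21.0 FPM with AII+EGF. The levels thus followed the order AII, control, EGF, AII+EGF: the AII and control libraries overlapped, while each EGF library exceeded each of these and each AII+EGF library exceeded each EGF library. Against control the log2 fold change was 1.00 (SE 0.20) with EGF, or 2.00-fold, and 1.47 (SE 0.21) with AII+EGF, or 2.77-fold.

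The highest AII+EGF library at 24 h, replicate 3 (replicates are numbered here in the order of the deposit), was also the shallowest at that time, with 6646227 counts. Without it the log2 fold change of SLC7A11 was 1.27 (SE 0.22). Its column is among the 8 of 15 at 24 h whose names carry the word filtered, with no filter described. The AII+EGF library with no such name stood at 21.0 FPM, against 6.16 and 7.47 FPM in the 2 such control libraries. In the libraries of the first run of library numbers in the labels, the ratio to control was 1.61 with EGF (2 libraries each) and 1.98 with AII+EGF (1 library). In those of the second run it was 2.59 and 3.82 (2 libraries each). The ratios were thus above 1 in both runs and larger in the second, where the control level was 6.82 against 10.8 FPM.

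**Figure D2:**
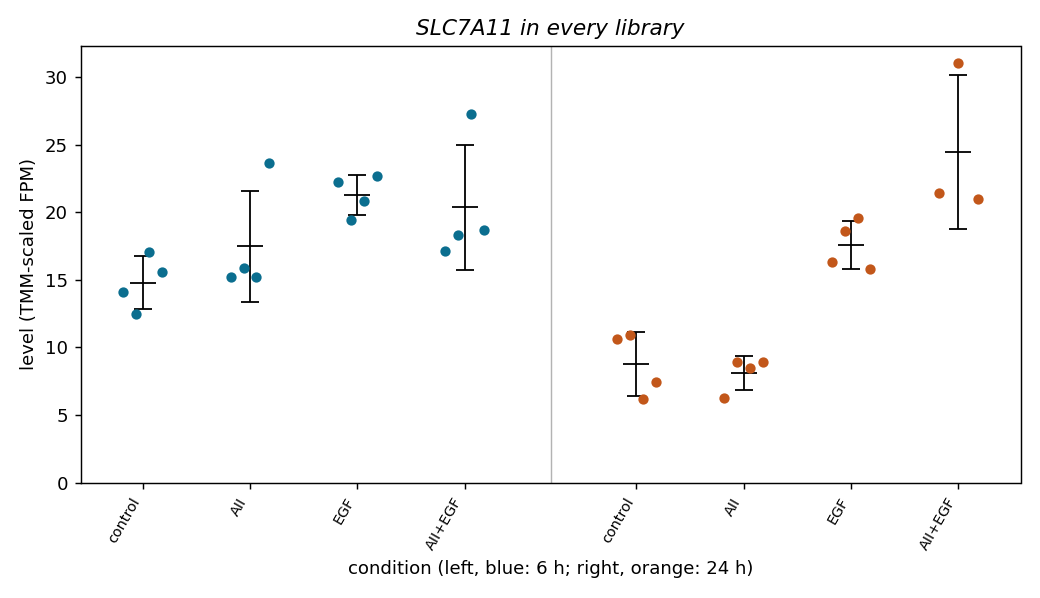
SLC7A11 level in TMM-scaled FPM in every library, by condition at 6 h (left) and 24 h (right), with the mean (long tick) and SD (bars) of each group, n = 4 or 3. At 24 h the EGF libraries (15.8 to 19.5 FPM) and the AII+EGF libraries (21.0 to 31.0 FPM) lay above all control libraries (6.16 to 10.9 FPM).

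SLC7A11 shares 865 exonic bases with the antisense gene SLC7A11-AS1, and the strand setting of the counting is not stated. SLC7A11-AS1 had 1 to 10 counts in the 6 h and 1 to 25 counts in the 24 h libraries, while SLC7A11 had 61 to 187 and 82 to 394 counts. Reads of the shared stretch cannot be told apart between the 2 genes without strand. The same holds for 271 exonic bases of SLC7A5 and 780 of SLC1A5, which lie opposite long non-coding RNA genes.

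SLC7A5 (chr16:87863629-87903113, minus strand, GRCh37; 10 exons) had the largest fold change of the 9 tested transporters at 6 h. It stood at 76.8, 92.5, 111 and 112 FPM in control, at 134, 142, 182 and 189 FPM with EGF and at 170, 166, 213 and 188 FPM with AII+EGF. No treated library overlapped with control. The log2 fold change was 0.72 (SE 0.13, edgeR adjusted p = 0.00166) with EGF and 0.91 (SE 0.13, edgeR adjusted p = 0.000118) with AII+EGF, or 1.65-fold and 1.88-fold, higher in 4 of 4 libraries each. The 6 h library numbers run on without a break, and the order of conditions repeats within them. Within the first and the second round of that order the log2 ratio to control was 0.71 and 0.73 with EGF. With AII+EGF it was 0.99 and 0.85. The labels do not name these rounds as batches.

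At 24 h SLC7A5 stood at 21.0, 19.9, 25.7 and 18.3 FPM in control, at 31.4, 32.3, 34.6 and 33.9 FPM with EGF and at 33.0, 41.5 and 34.6 FPM with AII+EGF. The treated libraries again lay above all control libraries. The log2 fold change was 0.64 (SE 0.13) with EGF and 0.77 (SE 0.14) with AII+EGF, close to the values of 6 h. The SLC7A5 sequence has near-identical pseudogene copies, so part of its reads may be split between them, and its counts are uncertain to that extent. SLC7A5P1 had 10 to 60 counts at 6 h, against 332 to 1561 for SLC7A5, and SLC7A5P2 had 0.

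SLC3A2, the shared heavy chain of SLC7A11 and SLC7A5, did not pass the test in any comparison. At 6 h it ranged from 80.1 to 104 FPM in control, 84.5 to 108 FPM with EGF and 92.3 to 127 FPM with AII+EGF. The log2 fold change was 0.07 (SE 0.10, edgeR adjusted p = 0.768) with EGF and 0.19 (SE 0.10, edgeR adjusted p = 0.322) with AII+EGF. The 95% interval of the EGF value ran from -0.14 to 0.28, which does not reach the point value of either light chain. It overlapped the 95% interval of SLC7A11 (0.20 to 0.86) but not that of SLC7A5 (0.44 to 1.00). The difference between the chains was not tested. At 24 h the values were 0.18 (SE 0.17) and 0.25 (SE 0.18), and the libraries overlapped with control.

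SLC7A1 and SLC38A1, the cationic amino acid transporter of most cells and a sodium-coupled transporter of glutamine and other neutral amino acids, rose at 6 h by less than the 1.5-fold limit. SLC7A1 (chr13:30083551-30169825, minus strand, GRCh37) stood at 307, 348, 395 and 360 FPM in control, at 441, 457, 480 and 532 FPM with EGF and at 488, 466, 532 and 519 FPM with AII+EGF. SLC38A1 (chr12:46576846-46663800, minus strand, GRCh37) stood at 197, 234, 261 and 261 FPM in control, at 354, 328, 362 and 362 FPM with EGF and at 340, 358, 381 and 341 FPM with AII+EGF. For both genes no treated library overlapped with control. The log2 fold change of SLC7A1 was 0.44 (SE 0.08, edgeR adjusted p = 0.00147) with EGF and 0.51 (SE 0.08, edgeR adjusted p = 0.000245) with AII+EGF. That of SLC38A1 was 0.56 (SE 0.08, edgeR adjusted p = 0.000177) with EGF and 0.57 (SE 0.08, edgeR adjusted p = 0.000107) with AII+EGF, or 1.47-fold and 1.49-fold.

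At 24 h the same 2 genes were again above control in every EGF and AII+EGF library, with smaller fold changes. SLC7A1 ranged from 157 to 176 FPM in control, 195 to 212 FPM with EGF and 209 to 230 FPM with AII+EGF, with log2 fold changes of 0.26 (SE 0.10) and 0.39 (SE 0.10). SLC38A1 ranged from 120 to 151 FPM in control, 158 to 174 FPM with EGF and 158 to 196 FPM with AII+EGF, with log2 fold changes of 0.30 (SE 0.11) and 0.37 (SE 0.12).

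The glutamine transporter SLC1A5 was not called at either time. At 6 h it ranged from 334 to 432 FPM in control, 350 to 449 FPM with EGF and 425 to 501 FPM with AII+EGF, with log2 fold changes of 0.05 (SE 0.10, edgeR adjusted p = 0.835) and 0.28 (SE 0.10, edgeR adjusted p = 0.0977). Over 21 alternative fits the adjusted p of the latter ranged from 0.00627 to 0.244. At 24 h all EGF libraries (166 to 182 FPM) lay above control (107 to 161 FPM), and the AII+EGF libraries (160 to 183 FPM) overlapped with it, with log2 fold changes of 0.39 (SE 0.13) and 0.34 (SE 0.14). SLC38A2, a sodium-coupled neutral amino acid transporter known to rise when cells lack amino acids, had log2 fold changes of 0.04 (SE 0.10, edgeR adjusted p = 0.886) with EGF and -0.09 (SE 0.11, edgeR adjusted p = 0.723) with AII+EGF at 6 h, and of 0.14 (SE 0.12) and 0.28 (SE 0.13) at 24 h. SLC1A4, a transporter of alanine, serine and cysteine, had log2 fold changes of 0.20 (SE 0.10, edgeR adjusted p = 0.294) and 0.25 (SE 0.10, edgeR adjusted p = 0.187) at 6 h, and of 0.09 (SE 0.20) and 0.01 (SE 0.22) at 24 h. The libraries of SLC38A2 and SLC1A4 overlapped with control in each of these comparisons.

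SLC6A9, a glycine transporter, was low, with 8 to 160 counts in the libraries. At 24 h it stood at 1.86, 3.05, 2.23 and 3.39 FPM in control, at 0.924, 5.03, 4.46 and 5.14 FPM with EGF and at 4.90, 11.3 and 8.52 FPM with AII+EGF. The AII+EGF libraries lay above control and the EGF libraries overlapped with it, with log2 fold changes of 1.62 (SE 0.43) and 0.58 (SE 0.41). At 6 h the log2 fold changes were 0.49 (SE 0.23, edgeR adjusted p = 0.238) with AII+EGF and 0.24 (SE 0.23, edgeR adjusted p = 0.609) with EGF, and the libraries overlapped. SLC6A9 shares 413 exonic bases with the antisense gene CCDC24, which had 8 to 34 counts at 6 h and 19 to 59 at 24 h.

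**Figure D3:**
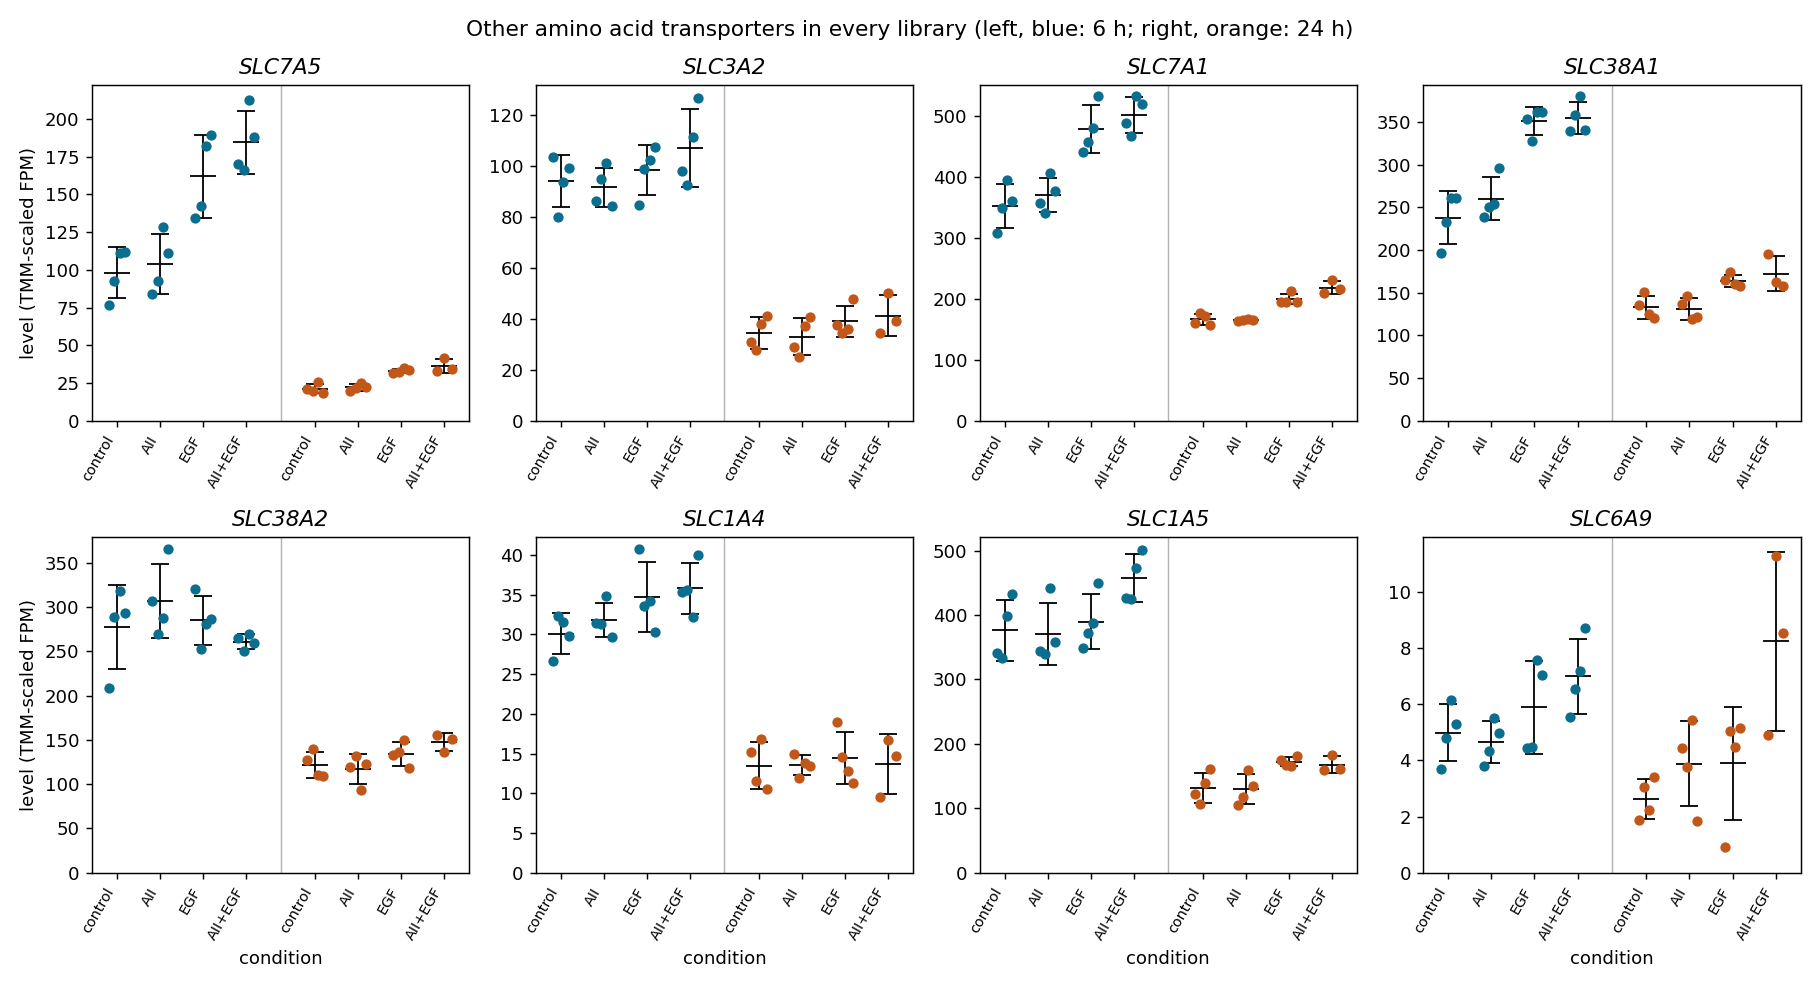
Levels of 8 further transporters in TMM-scaled FPM in every library, by condition at 6 h (left) and 24 h (right), with the mean and SD of each group, n = 4 or 3. SLC7A5, SLC7A1 and SLC38A1 separated EGF and AII+EGF from control at both times, whereas SLC3A2, SLC38A2 and SLC1A4 did not.

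The 24 h comparisons with control were known when the genes were chosen, so their counts describe the list and support nothing. In edgeR 0 of 9 transporters were past the 3 limits with EGF, beside 0.0316% of the 22174 genes tested, and 1 of 9 (SLC7A11) with AII+EGF, beside 0.0271%. On FDR alone the shares of all genes were the same. An unadjusted p under 0.05 was found for 5 of 9 with EGF and 7 of 9 with AII+EGF, beside 8.48% and 5.4% of genes. In DESeq2 2 of 9 (SLC7A11 and SLC7A5) were past the limits with each treatment, beside 0.248% and 0.14% of genes. All EGF libraries lay above all control libraries for 5 of 9 transporters, beside 2.35% of genes, and all AII+EGF libraries for 5 of 9, beside 3.99%. SLC7A11, SLC7A5, SLC7A1 and SLC38A1 were in both sets, with SLC1A5 added by EGF and SLC6A9 by AII+EGF. The EGF and AII+EGF comparisons share their control libraries.

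AII alone left the transporters without a call. edgeR called 0 of 9 at 6 h and 0 of 9 at 24 h, as it called 0% of all genes, 0 of 9 had an unadjusted p under 0.05 at either time, beside 4.54% and 2.49% of genes, and DESeq2 called 0, as it did over all genes. The AII log2 fold changes ran from -0.11 (SLC6A9) to 0.22 (SLC7A11) at 6 h and from -0.11 (SLC7A11) to 0.56 (SLC6A9) at 24 h. For SLC7A11 at 6 h the 95% interval ran from -0.13 to 0.56, which includes the value seen with EGF. At 24 h it ran from -0.53 to 0.31, below the values seen with EGF and AII+EGF.

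Adding AII to EGF gave no call either. edgeR called 0 of 9 at 6 h and 0 of 9 at 24 h, beside 0% of all genes at each time, and DESeq2 called 0, as it did over all genes. An unadjusted p under 0.05 was found for 1 of 9 at 6 h and 2 of 9 at 24 h, beside 7.26% and 3.37% of genes. The 1 at 6 h was SLC1A5, higher by 0.23 on the log2 scale (95% interval 0.03 to 0.43, edgeR adjusted p = 0.677), with overlapping libraries. At 6 h SLC7A11 differed between AII+EGF and EGF by -0.06 (95% interval -0.37 to 0.25) and SLC7A5 by 0.19 (95% interval -0.08 to 0.46) on the log2 scale. At 24 h SLC7A11 was higher in 3 of 3 AII+EGF libraries than in all 4 EGF libraries, by 0.47 on the log2 scale (95% interval 0.04 to 0.90), with an edgeR adjusted p of 1. These 24 h values, and those of SLC6A9, come from libraries whose comparisons with control were known when the genes were chosen. They are a description and not a test, and so are the 24 h counts above. SLC6A9 differed by 1.04 (95% interval 0.16 to 1.93), with overlapping libraries and an edgeR adjusted p of 1.

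**Figure D4:**
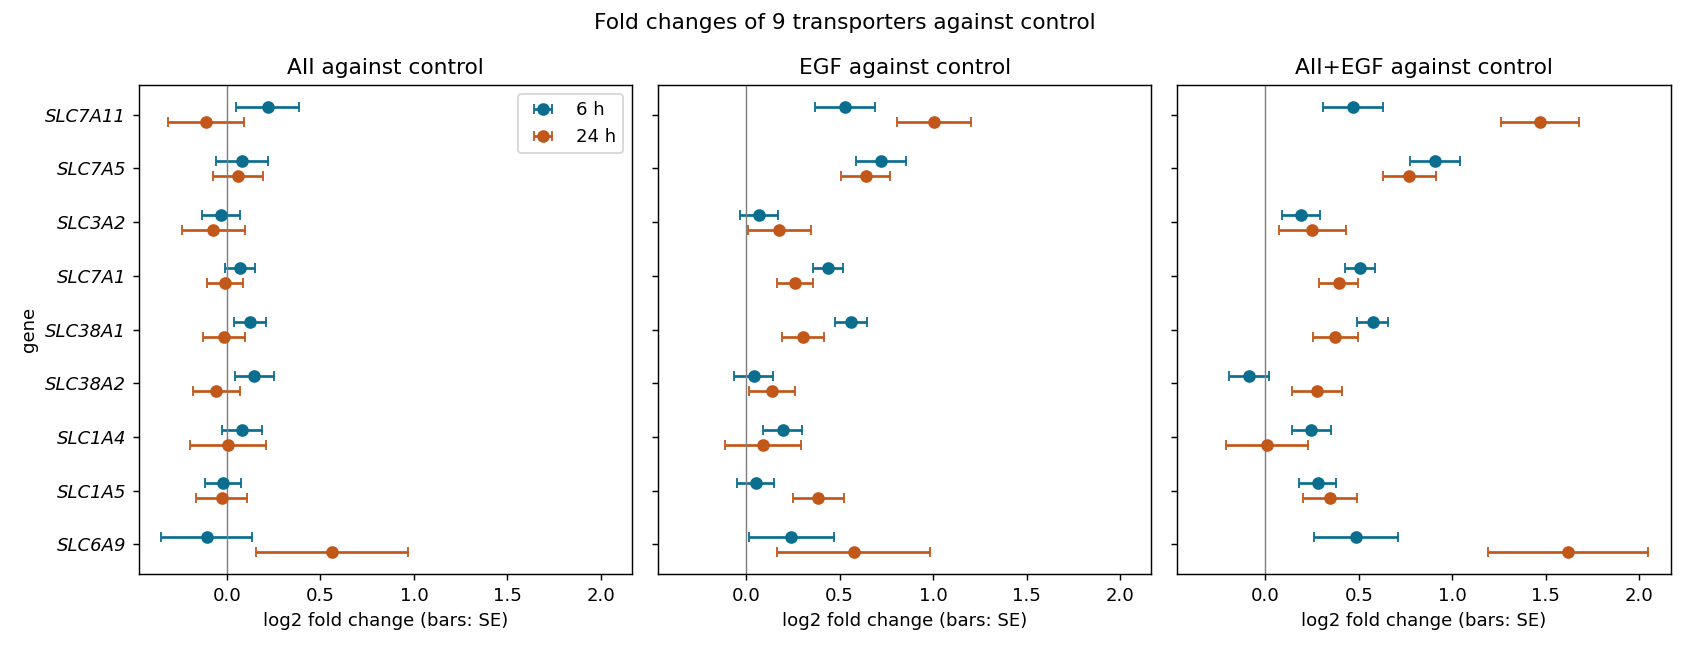
Log2 fold changes against control (points) with their SE (bars) for the 9 tested transporters, with AII, EGF and AII+EGF at 6 h and 24 h. With AII+EGF, SLC7A11 moved from 0.47 at 6 h to 1.47 at 24 h, while SLC7A5 stayed between 0.77 and 0.91.

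The 6 h and 24 h effects were compared in a joint fit of all 31 libraries, as differences of log2 fold changes. For AII, edgeR called 0 of 9 transporters, beside 0% of 21932 genes, 0 of 9 had an unadjusted p under 0.05, and DESeq2 called 0. The EGF and AII+EGF differences hold the 24 h comparisons that were known when the genes were chosen, so they are a description, and the 0 of 9 transporters past the limits with each (beside 0.164% and 0.123% of genes) are no test. SLC7A11 had a 24 h effect larger than its 6 h effect by 0.47 (SE 0.26) with EGF and by 0.98 (SE 0.27) with AII+EGF. For AII its difference was -0.32 (SE 0.27, edgeR adjusted p = 1). SLC6A9 differed in the same direction with AII+EGF, by 1.10 (SE 0.50). The differences of SLC7A5 (-0.09, SE 0.20, and -0.16, SE 0.20), SLC7A1 (-0.18, SE 0.12, and -0.14, SE 0.13) and SLC38A1 (-0.26, SE 0.14, and -0.22, SE 0.15) with EGF and AII+EGF were below 0.

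In FPM, control levels at 24 h were lower than at 6 h for each of the 9 tested transporters, by an amount that depended on the denominator. In control cells SLC7A5 stood at 98.1 ± 16.8 FPM at 6 h and 21.2 ± 3.19 FPM at 24 h (SD, n = 4). Per 1000000 protein-coding counts SLC7A5 stood at 118 ± 21.3 and 50.3 ± 7.43. SLC7A11 stood at 14.8 ± 1.97 and 8.80 ± 2.36 FPM in control. Per 1000000 protein-coding counts it stood at 17.8 ± 2.41 and 20.9 ± 5.81, so its order between the times turned, within the spread. The order of SLC6A9 turned as well, from 4.98 and 2.63 FPM to 6.01 ± 1.29 and 6.24 ± 1.62 per 1000000 protein-coding counts.

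The genes whose pattern was most like that of SLC7A11, by Pearson's r of log2 FPM centred on each time over 31 libraries, were ASNS (r = 0.913), CEBPG (r = 0.861), MTHFD2 (r = 0.848), YARS (r = 0.841) and MYO1D (r = 0.834). In the same order, r was 0.627, 0.728, 0.707, 0.419 and 0.690 in the 6 h libraries alone. In the 24 h libraries alone it was higher for each, at 0.963, 0.885, 0.874, 0.934 and 0.878. ASNS makes asparagine, CEBPG is a C/EBP transcription factor, MTHFD2 is a mitochondrial folate enzyme, YARS charges tyrosine tRNA and MYO1D is an unconventional myosin. Among the transporters r was 0.718 for SLC7A5, 0.717 for SLC7A1, 0.699 for SLC38A1, 0.573 for SLC1A5, 0.538 for SLC38A2, 0.380 for SLC3A2 and 0.079 for SLC1A4, and 4.33% of 11225 genes had an r above 0.5. These correlations describe the libraries, which share conditions, depth and composition. ASNS had log2 fold changes of 0.09 (SE 0.08) with EGF and 0.14 (SE 0.08) with AII+EGF at 6 h, and of 0.96 (SE 0.16) and 1.34 (SE 0.17) at 24 h. The 24 h values of the others were smaller, at 0.51 and 0.67 for CEBPG and 0.38 and 0.37 for MTHFD2. They were 0.56 and 0.74 for YARS and 0.26 and 0.35 for MYO1D. All were picked for likeness to SLC7A11 in these libraries, so a similar course is built in.

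Of 40 other amino acid transporters, 19 were tested at 6 h and 20 at 24 h. With AII+EGF at 6 h 1 of 19 was called, beside 1.95% of genes. It was SLC1A1, a glutamate transporter (log2 fold change 0.62, SE 0.17, edgeR adjusted p = 0.032). No other member of that list was called with EGF or AII+EGF at either time, and its median log2 fold change lay between 0.02 and 0.06 in these 4 comparisons. Of 16 genes of cystine and glutathione use, 12 were tested at 6 h and 15 at 24 h, and edgeR called 0 in each of the 4 comparisons. Over all genes it called 1.73% with EGF and 1.95% with AII+EGF at 6 h, and 0.0316% and 0.0271% at 24 h. At 6 h an unadjusted p under 0.05 was found for 6 of 12 with EGF and 2 of 12 with AII+EGF, beside 20.2% and 18.9% of genes. At 24 h it was found for 4 of 15 and 5 of 15, beside 8.48% and 5.4%. Both lists were drawn up with earlier results of these data known, so their 24 h counts are a description.

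Of 21 genes of the ATF4 pathway, 20 were tested at 6 h and 21 at 24 h. At 6 h edgeR called 1 of 20 higher with EGF and 3 of 20 with AII+EGF, beside 1.73% and 1.95% of all genes. STC2, a secreted glycoprotein, had log2 fold changes of 0.74 (SE 0.11, adjusted p = 0.000227) and 0.91 (SE 0.11, adjusted p = 1.44e-05). CEBPB, a C/EBP factor, and TRIB3, a pseudokinase that restrains ATF4, were called with AII+EGF at 0.90 (SE 0.18) and 0.66 (SE 0.20). At 24 h 1 of 21 was past the limits with EGF (ASNS), beside 0.0316% of genes. With AII+EGF 2 of 21 were past them (ASNS, and ATF4 at 0.67, SE 0.11), beside 0.0271%. The list was drawn up with earlier results of these data known, so these 24 h counts are a description. The median of the list was 0.19 and 0.20 at 6 h and 0.46 and 0.53 at 24 h. Over all genes it was -0.012 and -0.014 at 6 h and -0.0032 and -0.0062 at 24 h. The effects on ASNS and ATF4 were larger at 24 h than at 6 h with EGF (by 0.87, SE 0.18, and 0.70, SE 0.14) and with AII+EGF (by 1.17, SE 0.19, and 0.76, SE 0.15). These 2 genes are named because of their 24 h values, so the differences are a description.

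**Figure D5:**
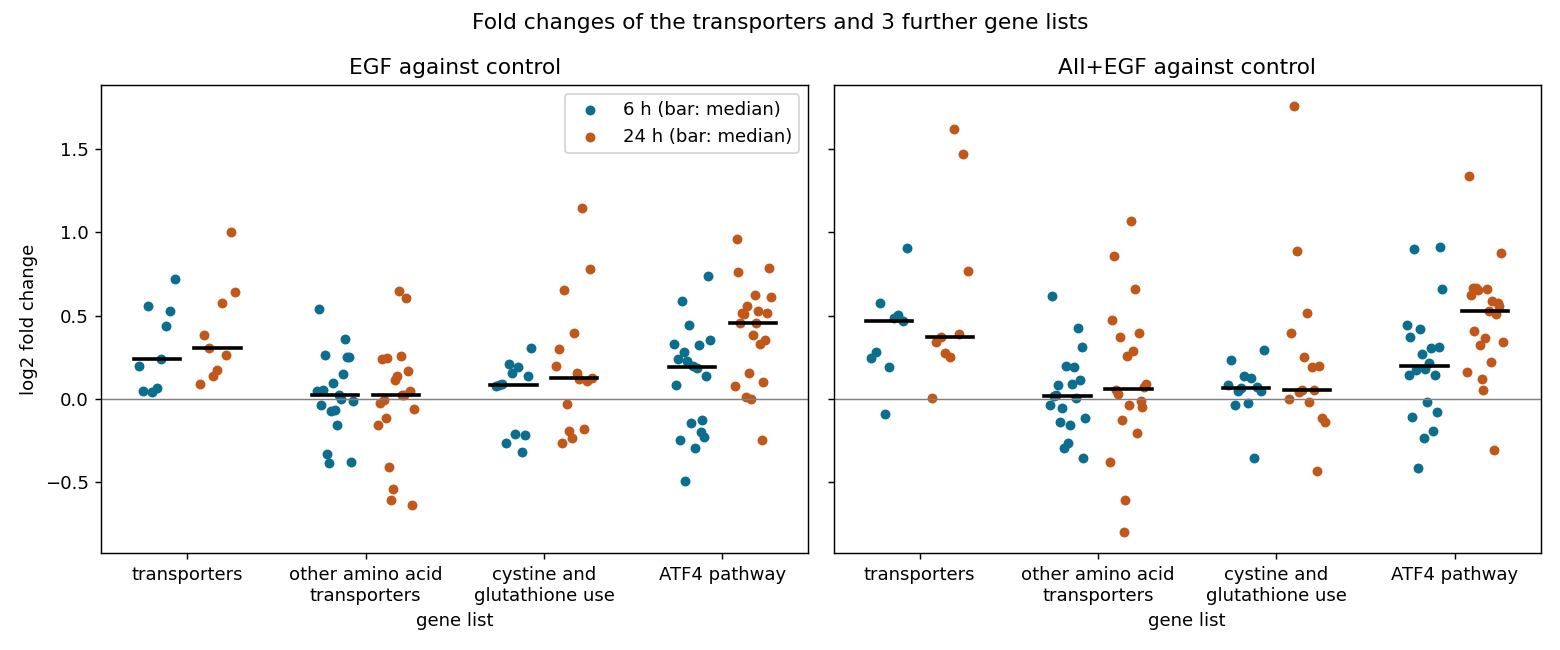
Log2 fold changes against control of the 9 tested transporters, other amino acid transporters, genes of cystine and glutathione use and genes of the ATF4 pathway, with 1 point for each gene and a bar at the median, for EGF and AII+EGF at 6 h and 24 h. The median of the transporters was 0.24 and 0.30 with EGF and 0.47 and 0.37 with AII+EGF, at 6 h and 24 h.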

How the data were processed

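RNA-seq counts per gene were deposited by the authors as 1 table for 6 h (16 libraries) and 1 for 24 h (15 libraries with counts). Per the methods, reads were trimmed (cutadapt 1.8.1), aligned to hg19 (TopHat2 2.0.14) and counted with featureCounts 1.4.6. HISAT2 is named in the series text, and no source used here gives the strand setting. All columns were used as deposited, 8 of those of 24 h being named filtered. Replicates were numbered in accession order. Counts were tested with edgeR 4.0.16 (TMM, filterByExpr, quasi-likelihood test over the 4 conditions of each time; R 4.3.3), with FDR under 0.05, fold change above 1.5 and mean FPM above 5. The 6 h and 24 h effects were compared in a joint fit. Single genes were also tested by exact permutation. Scripts were tested on simulated data. The transporters and gene lists were chosen with earlier results of these data known. Named genes were the 10 transporters, the 5 genes most correlated with SLC7A11 (prior count 2) and, from each list, up to 4 called genes with the largest fold change. Alternatives were DESeq2 1.42.0, its size factors, all counted genes in place of the low-count filter, FDR without FPM and fold limits, and FDR 0.01. Further alternatives were protein-coding genes only, leaving out each library, and a block for the run of library numbers (24 h) or the round of conditions (6 h). No 2 libraries of a group agreed within sampling noise (the lowest chi-square per gene was 2.07).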

Additional observations from a re-analysis of the deposited data

Results flagged for a closer look

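In 10 of 69 groups of 4 libraries, 1 library stood further from the others than Dixon's 95% limit for the gap as a share of the group's range, where chance gives about 3.45 (1 in 20). SLC7A11 was marked in 3 groups: AII at 6 h, where replicate 4 stood at 23.6 FPM and the next at 15.8 FPM (0.921 of the range), AII+EGF at 6 h, where replicate 3 stood at 27.2 FPM and the next at 18.6 FPM (0.852), and AII at 24 h, where replicate 1 stood at 6.25 FPM and the next at 8.50 FPM (0.851). SLC7A1 was marked with EGF at 24 h, where replicate 3 stood at 212 FPM and the next at 195 FPM (0.982). SLC6A9 was marked with EGF at 24 h, where replicate 1 stood at 0.924 FPM (8 counts) and the next at 4.46 FPM (0.839). The other 5 were SLC7A3, where a library with 1 to 3 counts stood among libraries with 0 (1 of the range each): control and AII at 6 h, AII+EGF at 6 h, and control and AII at 24 h. With a single library above 0 the gap is the whole range by arithmetic. Dixon's limit therefore does not apply to these 5, and the 10 cannot be weighed against 3.45.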

How the results depend on the processing

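Of the members called against control, SLC7A5 at 6 h kept its call with EGF and with AII+EGF in all alternatives run. The 6 h count was 1 with EGF and 1 with AII+EGF; it became 4 and 3 without the FPM and fold limits, and, with all counted genes kept, 2 with AII+EGF (SLC38A1 added). At 24 h the counts of 0 with EGF and 1 with AII+EGF became 2 and 2 with DESeq2, with protein-coding genes only and with the library run as a block (SLC7A11 and SLC7A5 in each), and 1 and 3 with all counted genes kept. Leaving out 1 library gave 1 to 3 and 1 to 2 at 6 h (3 with EGF without control replicate 3, and 2 without control replicate 4 or EGF replicate 2; 2 with AII+EGF without control replicate 3 or 4, or AII+EGF replicate 1 or 4), and 0 to 0 and 0 to 2 at 24 h. At 24 h, 0 were called with AII+EGF without AII+EGF replicate 3 (SLC7A11 log2 fold change 1.27), and 2 without control replicate 3 or AII replicate 3. Other member counts were 0 throughout. Fold changes that turned sign were all near 0: SLC1A4 with AII+EGF at 24 h was -0.0032 with DESeq2, -0.0029 with its size factors, -0.010 with protein-coding genes and -0.15 to 0.22 with 1 library left out. Leaving out 1 library also turned SLC1A4 with EGF at 24 h (-0.061 to 0.22), SLC38A2 (-0.069 to 0.11) and SLC1A5 (-0.018 to 0.13) with EGF at 6 h, and SLC7A11 in AII+EGF against EGF at 6 h (-0.24 to 0.017). The causes were not tested. No paired analysis was possible because replicate numbers are absent from the labels (those used here follow accession order and pair nothing). Counting depth limits SLC6A9 and SLC7A3, and the larger spread at 24 h limits which changes can pass there.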
